A study of Mus musculus with 6 samples.

Results

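This section sets the 3 arrays of ID8 cells with the highest proliferation markers against the 3 with the lowest, whatever their treatment, and asks which genes outside the cell cycle differed between them. The sides were chosen by measured values. For each array the log2 values of Mki67, Top2a, Cdk1, Plk1 and Mcm5 were averaged, and the 3 highest means made the high side and the 3 lowest the low side. All 6 arrays of the series were thereby used, 3 on each side. Of the 6 markers in the rule 5 were measured, and Ccnb1 was not analysed here. Since these 6 arrays chose the sides, every high against low difference below is a description and carries no test.

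Cells commit to division when cyclin-dependent kinases release E2F factors from the retinoblastoma family of pocket proteins, which turns on the genes that copy DNA. Genes of mitosis follow later and are held off in resting cells by the DREAM complex, which binds CHR elements in their promoters. Loss of serum takes away growth factors that work through ERK and MYC, and cells that leave the cycle usually make more lysosomes and more of the genes controlled by FOXO factors.

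ID8 is a line of mouse ovarian surface epithelial cells that became cancerous in culture, and all 6 arrays came from this single line. The CCL6 cultures had 24 h without serum and were given 200 ng/mL recombinant CCL6, a macrophage chemokine, for 6 h. The unstimulated cultures had the same 24 h without serum and no CCL6. Each treatment had 3 cultures that the labels call biological replicates, and total RNA of each was hybridised to 1 Clariom S array. The study used them to look for signals behind migration toward CCL6.

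The arrays were alike in overall level. Their medians lay between 5.42 and 5.49 on the log2 scale, and each array had 12263 to 12520 of 22206 probe sets above a background level of 4.85, set from chemosensory receptor genes that these cells should not use. Their identity genes stood out on both sides, with keratin 19 (Krt19) at 15.32, 15.37 and 15.58 on the high side and 15.10, 15.40 and 15.36 on the low side. Wt1, a transcription factor of the mesothelium and ovarian surface, had 14.95, 14.62 and 15.07 in the high arrays and 14.33, 14.33 and 14.63 in the low arrays. Epcam, an epithelial adhesion molecule, lay below background on every array, at 4.45, 4.01 and 3.69 on the high side, against 3.58, 3.75 and 3.87 on the low side. Of 14 macrophage markers 2 lay above background, and their mean level was 3.84 in the high arrays and 3.89 in the low arrays. Ptprc, the pan-leukocyte marker, lay between 3.94 and 4.55 in the high arrays and between 3.77 and 4.49 in the low arrays.

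The high side held CCL6 replicates 1 and 2 and unstimulated replicate 3, and the low side held CCL6 replicate 3 and unstimulated replicates 1 and 2. The high side thus had 2 CCL6 arrays of 3, against 1 of 3 on the low side. The arrays numbered 3 lay apart from both other arrays of their own treatment. No hybridisation date or other batch was given in the sources used here, and what sets those arrays apart was not tested. Were the labels of these 2 arrays exchanged, the high side would be the 3 CCL6 arrays and the low side the 3 unstimulated arrays, and the files hold no value that checks the labels. The make-up of the sides by values does not depend on these labels, whereas the treatments named within them and every comparison of CCL6 with unstimulated cells do. Values are listed below in the order just given, first the 3 high and then the 3 low arrays. Arrays were compared in pairs over the 12606 probe sets above background on at least 1 side. Between arrays of opposite sides the median absolute difference of a probe set was 0.38 to 0.52 on the log2 scale, over 9 pairs. Within a side it was 0.32 to 0.37 among the high arrays and 0.23 to 0.34 among the low arrays. The share of these probe sets at least 2-fold apart was 10.9 to 21.9% across the sides, 7.47 to 9.78% among the high arrays and 2.24 to 7.57% among the low arrays.

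The mean of the 5 markers was 12.78, 13.23 and 13.15 in the high arrays, against 11.29, 11.66 and 11.91 in the low arrays. The lowest high array, CCL6 replicate 1, therefore stood 0.88 above the highest low array, unstimulated replicate 2. Mcm5, a subunit of the helicase that opens DNA for copying, differed most, with 11.70, 12.56 and 12.35 in the high arrays, against 9.10, 9.87 and 9.56 in the low arrays. Mki67, the protein coating mitotic chromosomes that pathologists score as Ki-67, had 14.78, 14.93 and 14.87 on the high side and 13.46, 13.45 and 13.89 on the low side. Plk1, a mitotic kinase, had 14.60, 14.71 and 14.85 in the high arrays and 13.21, 13.36 and 13.58 in the low arrays. All 3 of these genes were far above background on the low side too. Cdk1, the kinase that drives entry into mitosis, had 11.58, 11.95 and 12.003 on the high side, against 10.27, 11.30 and 11.27 on the low side. Top2a, which untangles chromosomes, had 11.26, 11.98 and 11.69 in the high arrays, against 10.42, 10.31 and 11.23 in the low arrays. Its gap was the narrowest of the 5, at 0.03, because unstimulated replicate 2 lay next to CCL6 replicate 1. In such bulk samples more cycling cells and more transcript per cycling cell cannot be told apart.

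**Figure D1:**
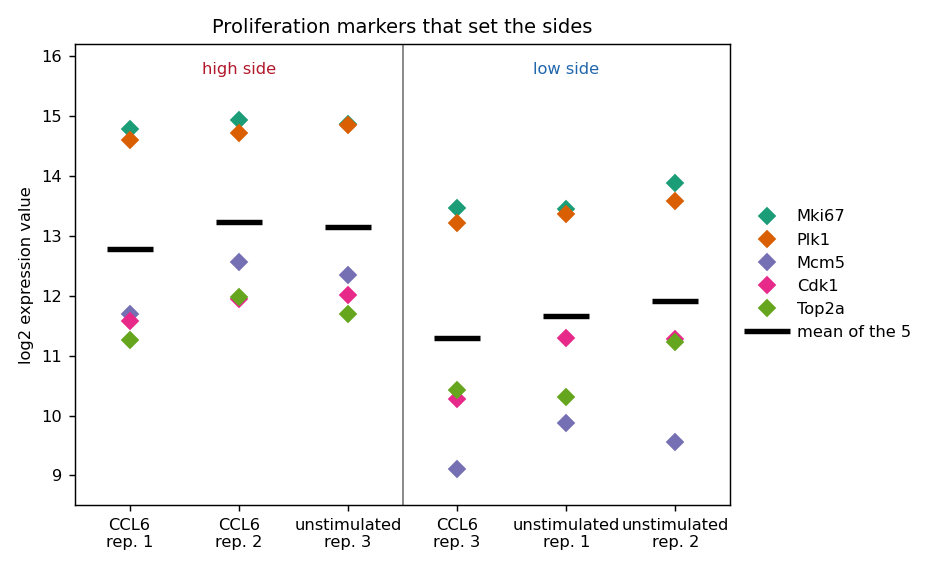
Log2 values of the 5 measured markers and their mean (black bars) on the 6 arrays, with the high side left and the low side right of the line. The means of the high arrays lie between 12.78 and 13.23 and those of the low arrays between 11.29 and 11.91, and each side holds arrays of both treatments.

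Counted over the array, 2306 probe sets (18.3% of 12606 above background on at least 1 side) had all 3 high arrays above all 3 low arrays, and 1882 (14.9%) had them below, while 49.4% had a higher mean on the high side. With a difference of at least 2-fold as well, 702 (5.57%) were higher and 404 (3.2%) lower on the high side. Over chemosensory receptors, 7.23% were higher and 4.13% lower without overlap. Since the same arrays set the sides, these shares are only the backdrop against which the counts of each list stand. The list counts run over all measured members, above background or not. Over all 19505 genes the shares without overlap were 13.2% higher and 10.9% lower. Among named probe sets above background, 162 belonged to the cell cycle lists, which hold the markers of the rule. Of these 162, 130 were higher and 2 lower without overlap. The other 11179 held 2017 that were higher and 1701 that were lower. High minus low differences of these 11179 had a median of -0.00. Of their higher ones 576 also differed at least 2-fold, as did 362 of their lower ones. Most of the separation by count lay outside the lists, which follows from the small number of probe sets inside them. By share it was more frequent inside, with 130 of 162 higher, against 2017 of 11179 outside. Genes outside the lists still include some tied to division, such as Rbl1 and Iqgap3. By chromosome the share that was higher lay between 14.5% on chromosome 12 and 23.7% on chromosome 15, and the share that was lower between 12.5% on chromosome 4 and 17.8% on chromosome 15.

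**Figure D2:**
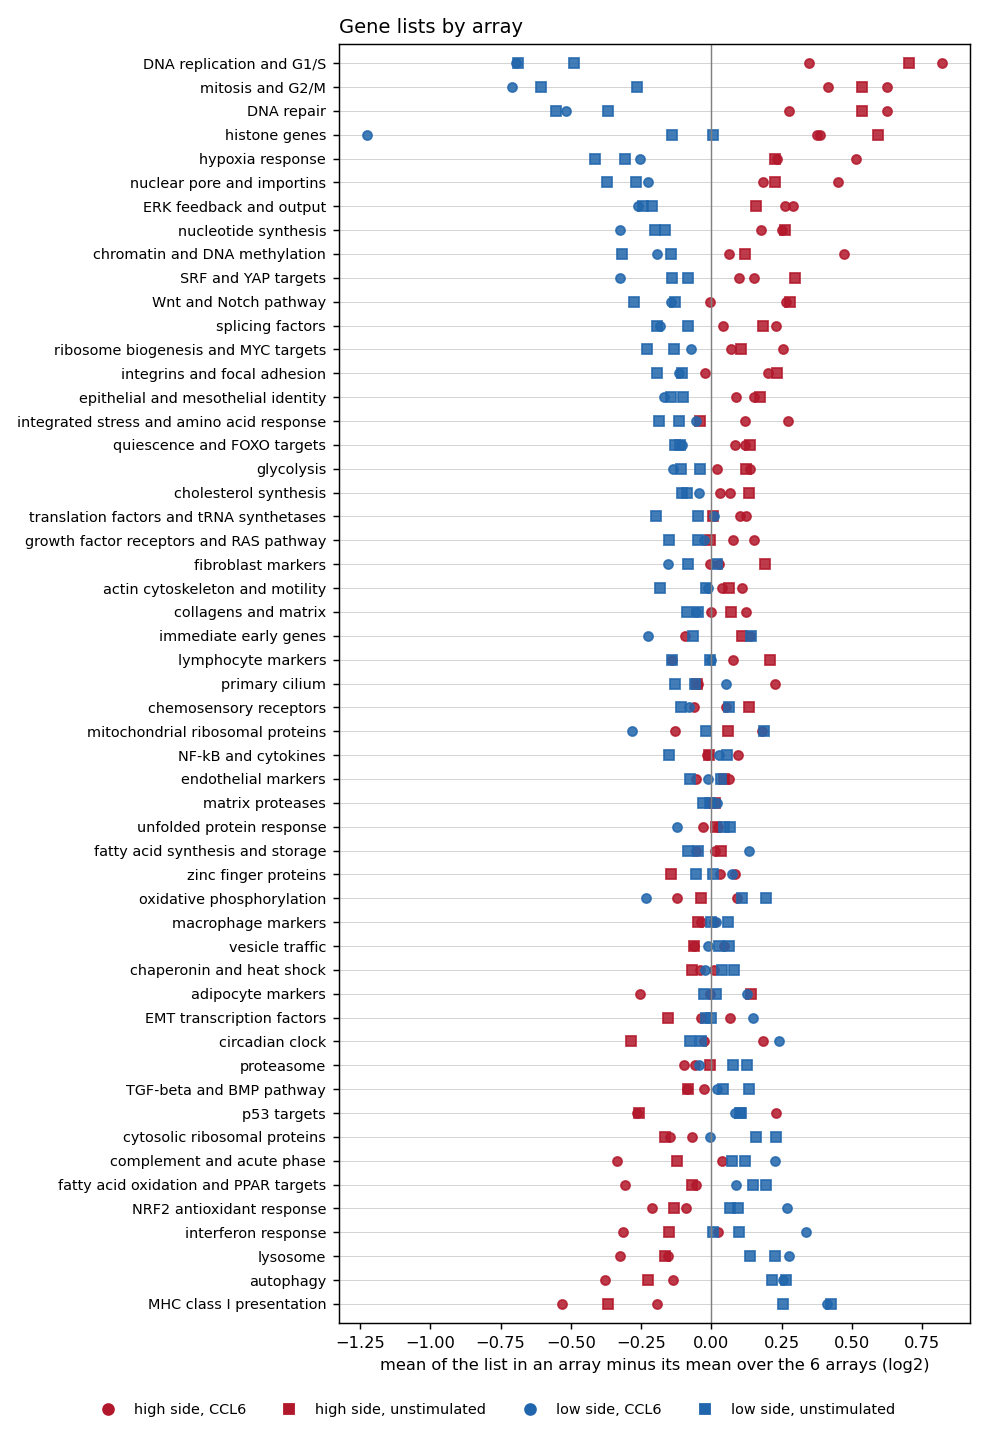
Mean log2 value of each gene list on each array, less its mean over the 6 arrays, with lists ordered by the high minus low difference from the highest at the top. Red points are high arrays and blue points low arrays, circles are CCL6 and squares unstimulated. DNA replication, mitosis and DNA repair genes stand at the top and MHC class I, autophagy and lysosome genes at the bottom, with no overlap between the sides.

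The lists closest to the rule are given first and briefly. Some hold markers of the rule, such as Mcm5 among the replication genes and Cdk1 among the mitosis genes, so their counts are in part set by it. Of 45 genes of DNA replication 41 were higher without overlap (91.1%, beside 18.3% of probe sets above background) and 0 lower, with a median difference of 1.28 (median of all named probe sets above background, 0.01). Uhrf1, which keeps up DNA methylation behind the replication fork, had 11.94, 12.92 and 13.21 on the high side and 10.01, 9.75 and 10.29 on the low side. Of 46 genes of mitosis 38 were higher and 1 lower, with a median of 1.03. Birc5, the survivin subunit of the chromosomal passenger complex, had 12.26, 12.27 and 12.60 in the high arrays and 9.82, 10.26 and 10.36 in the low arrays. The exception was Pttg1, securin, which holds sister chromatids together until anaphase, at 10.85, 10.16 and 10.61 on the high side, against 11.44, 11.55 and 11.27 on the low side. Of 32 DNA repair genes 21 were higher and 0 lower, among them Exo1, a nuclease of mismatch repair, with 10.12, 11.21 and 11.47 in the high arrays, against 8.53, 8.16 and 8.91 in the low arrays.

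Histone genes made in S phase separated in another way. Of 41 measured, 30 were higher and 1 lower without overlap, with a median of 1.01. Centred on the 6 arrays, their mean was 0.39, 0.38 and 0.59 on the high side and -1.22, -0.14 and 0.01 on the low side. CCL6 replicate 3 alone was far below the rest, whereas both other low arrays lay close to the overall mean. H4c14 had 15.87, 15.30 and 15.62 in the high arrays and 13.03, 14.48 and 14.47 in the low arrays. The linker histone H1f2 went the other way, at 11.14, 9.56 and 10.43 on the high side, against 11.54, 11.38 and 11.19 on the low side.

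Promoter stretches of mitotic genes that were higher on the high side are shown because DREAM-bound elements are known there. They are the 100 bases before the start in RefSeq (GRCm38.p6), 5′ to 3′ on the strand of the gene, with CCAAT boxes (CCAAT) and CHR elements (TTTGAA) in capitals, each searched on both strands. Kif11, the kinesin that pushes spindle poles apart, lies at chr19:37376282-37376381, plus strand, and Prc1, which bundles the midzone of the spindle, at chr7:80294376-80294475, plus strand.
Kif11: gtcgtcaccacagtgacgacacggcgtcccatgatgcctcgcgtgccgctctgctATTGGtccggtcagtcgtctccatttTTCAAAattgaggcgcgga
Prc1: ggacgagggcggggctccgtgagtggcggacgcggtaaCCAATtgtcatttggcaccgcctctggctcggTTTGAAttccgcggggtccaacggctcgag
Kif11 had 13.56, 13.84 and 13.52 in the high arrays, against 12.32, 12.71 and 12.90 in the low arrays. Prc1 had 11.11, 11.73 and 11.02 on the high side and 9.94, 9.53 and 10.44 on the low side. Both genes were thus higher without overlap. Within 250 bases before to 50 after the start, CCAAT was present in 71.8% and TTTGAA in 71.8% of the 39 mitosis genes with a promoter in the table. Over all 27025 promoters the shares were 41.1% and 20.2%, and over those of measured genes 42.2% and 17.8%. CCAAT was also frequent in other lists, such as 85.7% of 21 unfolded protein response genes. The E2F motif GGCGGGA was found in 44.4% of 36 replication genes, in 12.7% of all promoters and in 17.5% of those of measured genes. It was also found in 56.5% of 23 chromatin genes and 45.5% of 22 glycolysis genes. Such matches describe the letters of these windows and do not show binding.

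The widest gaps outside the cell cycle lists were of 2.10 to 3.09 for genes that were higher and of 1.72 to 2.72 for genes that were lower on the high side. Widest among the higher ones was Rbl1, the pocket protein p107 that restrains E2F, at 10.48, 11.63 and 11.09 in the high arrays and 7.05, 7.24 and 7.39 in the low arrays, a 14.3-fold difference of means. Iqgap3, a scaffold for Rac and Cdc42 found in dividing cells, had 10.80, 11.88 and 11.82 on the high side, against 7.92, 6.19 and 8.05 on the low side. Sox9, a transcription factor of progenitor cells in several organs, had 11.04, 12.60 and 12.02 in the high arrays, against 8.51, 8.50 and 8.24 in the low arrays. In all 3 genes CCL6 replicate 1 was the lowest of the high arrays, as it was for the markers. Car12, a membrane carbonic anhydrase, had 12.03, 12.70 and 12.60 on the high side and 9.52, 9.51 and 9.68 on the low side. Its low arrays were almost level. Cldn3, a claudin of tight junctions, had 7.45, 8.54 and 8.50 in the high arrays and 4.84, 5.16 and 5.18 in the low arrays. The matrix enzyme gene Loxl1, which helps to cross-link elastin, had 11.97, 12.95 and 12.69 on the high side, against 9.51, 8.89 and 9.68 on the low side. Cldn3 alone of these genes came down to the background level on the low side. The others were Igsf9, Angptl7, Pimreg, Fut10, Alg3 and Snrpa1, with mean differences between 2.49 for Alg3, a mannosyltransferase of protein glycosylation, and 3.84 for Angptl7, a secreted angiopoietin-like protein.

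Lower on the high side by the widest gap was Masp1, a protease of the lectin pathway of complement, with 7.63, 6.17 and 5.68 in the high arrays, against 10.86, 10.34 and 10.52 in the low arrays, a 16.9-fold difference of means. Vcam1, an adhesion molecule that leukocyte integrins bind, had 7.97, 5.94 and 7.33 on the high side and 11.23, 10.81 and 10.55 on the low side. CCL6 replicate 2 was the lowest array for Vcam1, and CCL6 replicate 3 the highest for both genes. Snap25, a SNARE protein of regulated secretion, had 5.46, 5.78 and 5.02 in the high arrays and 9.61, 8.40 and 7.97 in the low arrays. Tg, thyroglobulin, had 7.86, 6.28 and 6.74 on the high side, against 9.78, 9.72 and 9.75 on the low side. Its low arrays were almost level, whereas those of Snap25 were spread. Epgn, an EGF receptor ligand, had 5.06, 5.12 and 4.92 in the high arrays, against 7.99, 7.70 and 6.93 in the low arrays, just above background on the high side. St3gal4, a sialyltransferase, had 9.63, 10.12 and 9.96 on the high side and 11.86, 11.92 and 11.97 on the low side. Mylpf, Esp34, Fam189a2, Prrg2, H2-T23 and Gstk1 completed the set, with mean differences from -2.52 for Fam189a2 to -3.04 for Mylpf, a myosin light chain of fast muscle.

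**Figure D3:**
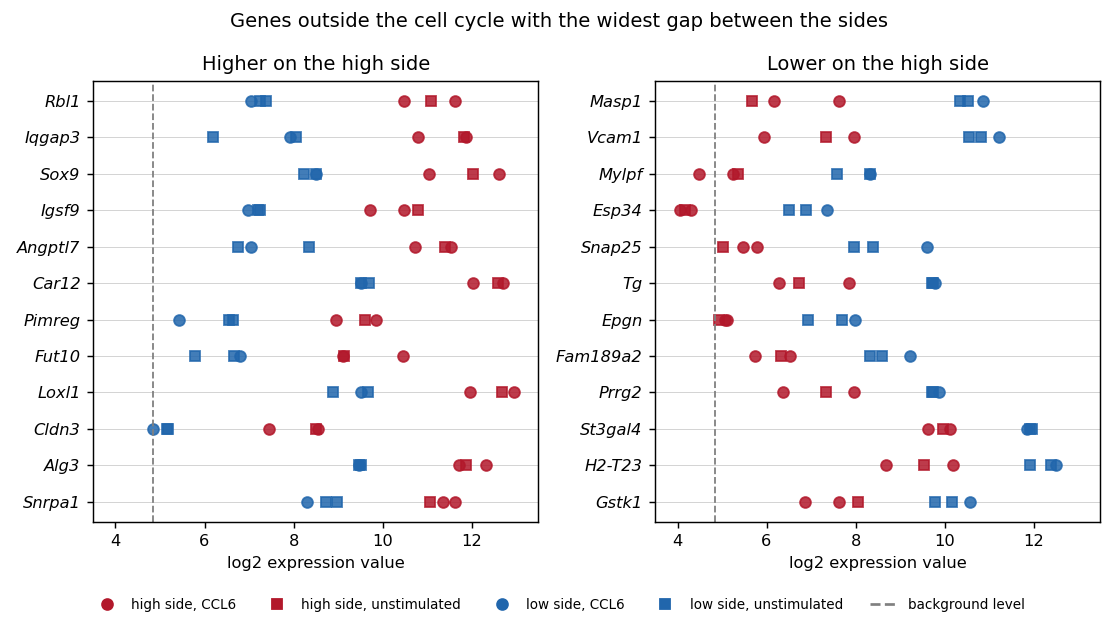
Log2 values on the 6 arrays of the 12 genes with the widest gap in each direction outside the cell cycle lists, with red for high and blue for low arrays, circles for CCL6 and squares for unstimulated. In every row the red and blue points do not mix, as the choice of genes required, and both colours hold circles and squares.

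Growth genes that feed division had positive median differences in each of the 4 lists that follow, with fewer members lower than higher. Of 28 genes of nucleotide synthesis 15 were higher and 2 lower without overlap, with a median of 0.52. Rrm2, the regulated subunit of ribonucleotide reductase, had 14.03, 14.26 and 14.13 in the high arrays and 12.67, 12.60 and 13.32 in the low arrays. Ppat, the first enzyme of purine synthesis, had 9.51, 9.35 and 9.92 on the high side, against 8.30, 8.58 and 8.44 on the low side. An exception was Adss, an enzyme on the path to AMP, at 12.97, 12.64 and 12.15 in the high arrays, against 13.55, 13.29 and 13.44 in the low arrays. Of 27 genes of the nuclear pore and its carriers 15 were higher and 0 lower (median 0.52), and of 26 chromatin genes 11 were higher and 0 lower (median 0.44). Nup85, a scaffold nucleoporin, had 9.43, 9.78 and 9.92 on the high side and 8.04, 7.73 and 8.14 on the low side. Dnmt1, the maintenance DNA methyltransferase, had 11.05, 11.73 and 11.31 in the high arrays and 10.05, 9.66 and 10.42 in the low arrays. Splicing factors had a smaller median of 0.18, with 11 of 32 higher and 0 lower.

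Ribosome genes were split. Of 41 genes of ribosome assembly and MYC targets 14 were higher and 2 lower, with a median of 0.27. Myc itself had 15.27, 15.22 and 15.34 on the high side, against 14.59, 14.41 and 14.22 on the low side. Among the 74 proteins of the cytosolic ribosome 0 were higher and 22 were lower without overlap, with a median difference of -0.22. Their centred mean was -0.07, -0.15 and -0.16 in the high arrays, against -0.01, 0.23 and 0.16 in the low arrays, and CCL6 replicate 3 stood nearest to the high arrays. Rpl29 had 14.67, 14.81 and 14.20 on the high side and 15.47, 15.22 and 15.65 on the low side. Npm1, nucleophosmin, a nucleolar protein counted with the assembly factors, was lower too, at 15.33, 15.66 and 15.19 in the high arrays and 15.83, 16.07 and 15.83 in the low arrays. Factors that build ribosomes and proteins of the finished ribosome thus differed in opposite directions on balance. Among 73 mitochondrial ribosomal proteins 11 were higher and 5 lower, with the largest difference for Mrps25 at 9.45, 9.97 and 9.74 on the high side, against 7.24, 7.25 and 7.86 on the low side.

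Hypoxia response genes, the targets of hypoxia-inducible factors, were higher in 9 of 23 cases without overlap and lower in 1, with a median of 0.36. Next to Car12, Epas1, which encodes the factor HIF-2α, had 7.98, 8.52 and 8.78 in the high arrays, against 6.79, 6.04 and 6.76 in the low arrays. Egln3, an oxygen-sensing prolyl hydroxylase, had 13.10, 13.54 and 13.86 on the high side and 11.83, 11.92 and 11.93 on the low side. Ndrg1, a stress gene that low oxygen induces, had 14.07, 14.52 and 14.32 in the high arrays and 12.96, 12.90 and 12.74 in the low arrays. For all 4 of these genes the low arrays were closer together than the gap to the high side. Vegfa, the best known target, overlapped between the sides, at 12.63, 13.45 and 12.72 on the high side, against 12.77, 11.44 and 12.14 on the low side. Hif1a, which encodes HIF-1α, overlapped as well, at 14.74, 14.82 and 14.50 in the high arrays, against 14.59, 14.27 and 14.24 in the low arrays. Ccng2, an atypical cyclin that hypoxia and FOXO factors induce, was lower, at 14.30, 13.99 and 14.03 on the high side and 14.82, 14.80 and 14.82 on the low side. Glycolysis genes followed in part, with 8 of 23 higher and 3 lower. The glucose transporter gene Slc2a1 had 16.08, 16.44 and 16.06 in the high arrays and 15.30, 15.39 and 15.43 in the low arrays. The monocarboxylate carrier gene Slc16a1 was lower, at 14.28, 13.32 and 14.09 on the high side, against 14.62, 15.04 and 14.86 on the low side. The median of the glycolysis list, 0.09, became -0.01 without CCL6 replicate 2.

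Stretches of a pair of hypoxia response genes for collagen prolyl hydroxylases are shown for the core letters ACGTG that hypoxia-inducible factors bind, again the 100 bases before the start in RefSeq (GRCm38.p6), with the match on either strand in capitals. P4ha2 lies at chr11:54100824-54100923, plus strand, and P4ha1 at chr10:59323196-59323295, plus strand.
P4ha2: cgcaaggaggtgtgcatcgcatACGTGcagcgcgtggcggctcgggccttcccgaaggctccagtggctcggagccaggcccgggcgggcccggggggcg
P4ha1: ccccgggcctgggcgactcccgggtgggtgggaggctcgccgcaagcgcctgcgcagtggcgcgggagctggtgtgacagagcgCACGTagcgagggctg
P4ha2 had 10.80, 12.08 and 11.31 in the high arrays, against 9.92, 10.06 and 9.87 in the low arrays. P4ha1 had 13.39, 13.44 and 13.52 on the high side and 12.65, 12.59 and 12.66 on the low side. Both were higher, P4ha1 by less and with closer replicates. ACGTG was present in the promoter window of 72.2% of 18 hypoxia response genes, 21.8% of all promoters and 24% of those of measured genes. It was present in 68.2% of 22 glycolysis and 62.1% of 29 vesicle traffic genes too. These letters are also part of the E-box CACGTG.

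Feedback genes of the ERK pathway, which growth factors switch on, were higher in 8 of 23 cases without overlap and lower in 1, with a median of 0.32. Etv4, an ETS transcription factor, had 9.56, 9.85 and 10.07 in the high arrays and 7.23, 7.96 and 8.30 in the low arrays. Its relative Etv5 had 10.47, 11.30 and 11.34 on the high side, against 9.67, 9.47 and 9.19 on the low side. Dusp5, a phosphatase that takes phosphate off ERK in the nucleus, had 11.56, 11.56 and 11.77 in the high arrays, against 9.78, 10.57 and 10.48 in the low arrays. All 3 genes were higher by at least 1 log2 unit. Dusp6, the cytoplasmic ERK phosphatase, separated by less, at 14.43, 14.47 and 14.41 on the high side and 14.17, 14.25 and 14.03 on the low side. Dusp1 overlapped, at 14.53, 15.33 and 14.34 in the high arrays and 15.24, 14.53 and 14.45 in the low arrays. For Etv4 and Dusp5 CCL6 replicate 3 was the lowest array, and for Dusp1 it lay among the highest.

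Receptors and their pathway showed single genes rather than a shift, with 6 of 30 higher and 4 lower and a median of -0.00. Fgfr1, a receptor of fibroblast growth factors, had 7.89, 8.48 and 8.43 on the high side, against 6.13, 6.40 and 6.31 on the low side. Erbb3, the neuregulin receptor, had 8.46, 9.27 and 9.04 in the high arrays, against 7.18, 7.27 and 7.08 in the low arrays. Erbb2, its kinase partner, had 9.98, 9.92 and 9.91 on the high side and 9.03, 9.47 and 9.24 on the low side. Erbb2 differed by less than the other 2 receptors. Of the Wnt and Notch genes 10 of 36 were higher and 4 lower, with a median of 0.32. Lfng, which modifies Notch receptors with sugars, had 10.48, 11.96 and 11.46 in the high arrays and 8.89, 9.11 and 8.49 in the low arrays. Axin2, a target and brake of Wnt signalling, had 6.18, 7.30 and 6.33 on the high side, against 4.88, 4.68 and 4.67 on the low side. Hes1, a target of Notch, had 6.15, 5.97 and 5.88 in the high arrays, against 4.60, 4.88 and 5.02 in the low arrays. Axin2 and Hes1 were thus close to background on the low side. Among receptors of Wnt, Fzd1 was higher, at 9.68, 9.74 and 9.87 on the high side and 8.53, 8.74 and 8.93 on the low side. Fzd6, another such receptor, was lower, at 11.51, 11.39 and 11.91 in the high arrays and 12.58, 12.30 and 12.36 in the low arrays.

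Targets of SRF and YAP, which report actin tension and contact between cells, were higher in 12 of 29 cases and lower in 2, with a median of 0.36. Ccn2, connective tissue growth factor, had 14.07, 14.17 and 14.31 on the high side, against 11.27, 11.84 and 12.59 on the low side. Ajuba and Zyx, LIM proteins of adhesions, differed by 1.12 and 0.78. Ankrd1, another YAP target, overlapped, at 16.02, 14.87 and 15.61 in the high arrays, against 14.99, 15.09 and 15.59 in the low arrays. Yap1 itself had 9.72, 10.57 and 9.84 on the high side and 10.69, 10.53 and 10.66 on the low side, with CCL6 replicate 2 level with the low arrays. Cnn2, a calponin, was lower, at 10.42, 10.73 and 11.18 in the high arrays and 11.44, 11.66 and 11.999 in the low arrays.

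Integrin and focal adhesion genes also had a positive median. Of 32 integrin and focal adhesion genes 10 were higher and 1 lower, with a median of 0.20. Cd44, the receptor for hyaluronan, had 13.94, 14.05 and 13.88 on the high side, against 12.23, 12.43 and 12.82 on the low side. Tns1, a tensin that links integrins to actin, had 10.06, 10.56 and 10.35 in the high arrays, against 8.52, 9.09 and 8.98 in the low arrays. Tln1, talin, which activates integrins, had 15.32, 15.49 and 15.41 on the high side and 14.95, 14.60 and 15.005 on the low side. All 3 genes were higher without overlap. Actin regulators had a median of 0.04, with 13 of 46 higher and 6 lower. Of 41 collagen and matrix genes 6 were higher (14.6%) and 1 lower. Of 30 matrix proteases and inhibitors 5 were higher (16.7%) and 2 lower. Over all genes, above background or not, the share that was higher was 13.2%, near both. Diaph3, a formin that works in motility and cytokinesis, had 12.09, 11.49 and 12.14 in the high arrays and 10.14, 9.87 and 10.34 in the low arrays. Tmsb4x, which binds actin monomers, was lower, at 16.91, 17.02 and 16.78 on the high side, against 17.50, 17.52 and 17.52 on the low side.

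Identity genes of the ovarian surface epithelium and mesothelium were higher in 13 of 30 cases and lower in 3, with a median of 0.27. Gata6, a transcription factor of this lineage, had 13.31, 13.33 and 13.54 in the high arrays, against 11.97, 12.39 and 12.29 in the low arrays. Its relative Gata4 had 14.49, 15.25 and 15.01 on the high side and 13.91, 13.77 and 13.82 on the low side. Upk1b, a uroplakin of mesothelial cells, had 14.60, 15.18 and 14.67 in the high arrays and 13.28, 13.60 and 13.81 in the low arrays. These genes were highly expressed on both sides and still did not overlap. Msln, mesothelin, had 13.31, 12.90 and 13.08 on the high side, against 12.53, 12.70 and 12.61 on the low side. A pair of mesenchymal genes on the list went the other way. Cdh2, N-cadherin, had 13.90, 13.48 and 13.71 in the high arrays, against 14.95, 14.60 and 14.76 in the low arrays. Vim, vimentin, had 17.60, 17.61 and 17.54 on the high side and 17.96, 17.77 and 17.93 on the low side. The epithelial counterpart of Cdh2, Cdh1 or E-cadherin, overlapped, at 7.67, 6.39 and 8.08 in the high arrays and 8.67, 8.88 and 8.06 in the low arrays. Krt18 overlapped too, at 14.64, 14.30 and 14.73 on the high side, against 14.56, 14.78 and 14.77 on the low side.

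Genes of antigen presentation on MHC class I, by which cells show peptides to cytotoxic T cells, had the lowest median of the 53 lists measured, at -0.75. Of 18 measured 0 were higher and 11 (61.1%) lower without overlap. The centred list mean was -0.19, -0.53 and -0.37 in the high arrays, against 0.41, 0.43 and 0.25 in the low arrays. H2-T23, a nonclassical class I molecule that presents peptides to NK and T cells, had 10.18, 8.69 and 9.54 on the high side and 12.50, 12.39 and 11.91 on the low side, a 6.94-fold difference. The classical heavy chain genes differed by less. H2-K1 had 11.90, 12.15 and 11.65 in the high arrays and 13.11, 12.73 and 12.57 in the low arrays. H2-D1 had 8.53, 7.88 and 8.48 on the high side, against 9.24, 8.90 and 9.03 on the low side. B2m, the shared light chain, had 16.28, 16.13 and 15.99 in the high arrays, against 16.88, 16.44 and 16.54 in the low arrays. Heavy and light chains were thus all lower without overlap. Tap2, a subunit of the peptide transporter, had 4.94, 4.58 and 4.82 on the high side and 6.07, 5.49 and 5.33 on the low side. On the high side it was at background. Its partner Tap1 overlapped, at 6.24, 5.23 and 5.61 in the high arrays and 6.48, 6.95 and 6.11 in the low arrays. Psmb10, a subunit of the immunoproteasome, had 7.01, 7.05 and 8.44 on the high side, against 8.59, 9.67 and 9.08 on the low side. The class I genes lie in a multigene family, and cross-hybridisation between its members was not tested.

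Of 38 interferon-induced genes 2 were higher and 9 lower, with a median of -0.19. The 24 of them above background had a median of -0.42. The members that were lower included sensors of viral RNA. Oasl2 had 10.44, 10.00 and 10.08 in the high arrays, against 12.33, 11.41 and 11.51 in the low arrays. Ddx58, which encodes RIG-I, had 10.57, 9.59 and 10.23 on the high side and 12.01, 11.24 and 11.44 on the low side. Gbp2, a guanylate-binding protein, had 7.67, 6.78 and 7.76 in the high arrays and 9.26, 8.82 and 8.43 in the low arrays. Commonly used readouts of interferon did not separate. Isg15, a ubiquitin-like protein, lay near background at 5.54, 4.56 and 4.90 on the high side, against 5.36, 4.90 and 4.84 on the low side. Ifit3, which blocks viral RNA, had 6.46, 6.05 and 5.88 in the high arrays, against 5.87, 5.41 and 6.27 in the low arrays. Irf1, a transcription factor that interferon-gamma induces, was higher, at 10.63, 10.84 and 11.07 on the high side and 10.07, 10.45 and 10.60 on the low side. The complement list, which did not hold Masp1, had 1 of 20 genes higher and 4 lower. Its median was -0.16, and -0.75 over the 9 genes above background. C1rl, a C1r-like protease, had 8.31, 7.32 and 7.69 in the high arrays and 9.57, 9.93 and 8.91 in the low arrays. Cd55, which protects cells from complement, had 11.59, 11.55 and 11.49 on the high side, against 13.11, 12.64 and 12.76 on the low side. Cd59a, another protector, was higher, at 7.81, 7.84 and 9.04 in the high arrays, against 7.45, 7.20 and 7.33 in the low arrays.

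NF-kB targets and cytokines did not share a direction, with 6 of 35 higher and 2 lower and a median of 0.15. Csf1, the growth factor of macrophages, had 15.53, 15.85 and 15.45 on the high side and 14.31, 14.43 and 14.79 on the low side. Tnfaip2, a gene that TNF induces, had 13.35, 14.08 and 13.31 in the high arrays and 12.46, 12.06 and 12.12 in the low arrays. Both were higher on the high side, in the direction opposite to Vcam1.

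Lysosomal genes were lower without overlap in 21 of 38 cases (55.3%) and higher in 1, with a median of -0.42. Their centred mean was -0.15, -0.33 and -0.16 on the high side, against 0.28, 0.23 and 0.14 on the low side. Lipa, acid lipase, which frees cholesterol from its esters, had 11.42, 10.43 and 11.45 in the high arrays, against 12.66, 13.04 and 12.64 in the low arrays. Neu1, the lysosomal sialidase, had 8.07, 7.75 and 7.85 on the high side and 9.35, 9.63 and 9.27 on the low side. Manba, a mannosidase, had 8.16, 8.59 and 8.61 in the high arrays and 10.00, 9.76 and 9.82 in the low arrays. The membrane proteins Lamp1 and Lamp2 differed by -0.33 and -0.41. The master regulators overlapped. Tfeb had 7.41, 7.49 and 7.30 on the high side, against 7.09, 7.31 and 7.19 on the low side. Tfe3 had 10.15, 10.35 and 10.23 in the high arrays, against 10.32, 10.17 and 10.07 in the low arrays. Sgsh, a sulfatase that degrades heparan sulfate, was the single member that was higher without overlap, at 9.03, 9.43 and 9.67 on the high side and 7.87, 7.54 and 8.02 on the low side.

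The stretches of Ctsa, cathepsin A, and of Sgsh are shown since both hold TCACGTG, the core of the CLEAR element that TFEB binds, and yet differed in opposite directions. They are the 100 bases before the start (RefSeq, GRCm38.p6) with the match on either strand in capitals. Ctsa lies at chr2:164833673-164833772, plus strand, and Sgsh at chr11:119355511-119355610, minus strand.
Ctsa: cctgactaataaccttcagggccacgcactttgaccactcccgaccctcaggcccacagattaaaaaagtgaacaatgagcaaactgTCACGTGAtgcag
Sgsh: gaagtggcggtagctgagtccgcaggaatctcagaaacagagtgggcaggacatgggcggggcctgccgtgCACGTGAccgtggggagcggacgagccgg
Ctsa had 13.50, 13.04 and 13.57 in the high arrays and 14.15, 14.20 and 14.05 in the low arrays. TCACGTG, which contains the ACGTG searched above, was present in 31.2% of 32 lysosomal promoter windows. Its share was 4.29% of all promoters, 5.21% of those of measured genes and 22.7% of 22 translation factor and tRNA synthetase genes.

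Autophagy genes, which deliver cell contents to the lysosome, were lower in 15 of 28 cases (53.6%) and higher in 0, with a median of -0.43. The centred list mean was -0.13, -0.38 and -0.22 on the high side, against 0.26, 0.27 and 0.22 on the low side. Atg4a, a protease that trims LC3 family proteins, had 8.32, 9.46 and 8.03 in the high arrays, against 10.51, 10.21 and 10.46 in the low arrays. Map1lc3a, an LC3 protein of the autophagosome membrane, had 9.64, 9.51 and 9.20 on the high side and 10.48, 10.65 and 10.82 on the low side. The cargo receptor gene Sqstm1, which encodes p62, had 13.72, 14.14 and 13.68 in the high arrays and 15.04, 14.48 and 14.55 in the low arrays. Starter genes of the pathway overlapped. The kinase gene Ulk1 had 8.37, 8.25 and 8.95 on the high side, against 8.36, 8.04 and 8.42 on the low side. Becn1, a subunit of the lipid kinase that starts the membrane, had 11.39, 10.54 and 10.67 in the high arrays, against 10.82, 10.85 and 10.58 in the low arrays.

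Antioxidant genes controlled by NRF2 were lower in 13 of 26 cases and higher in 1, with a median of -0.31. Gclc, the catalytic subunit of the first enzyme of glutathione synthesis, had 11.52, 10.54 and 10.85 on the high side and 13.07, 12.59 and 12.65 on the low side. Gstm1, a glutathione transferase, had 12.15, 11.59 and 12.49 in the high arrays and 13.39, 13.15 and 13.39 in the low arrays. Ftl1, the ferritin light chain, had 15.59, 15.52 and 15.11 on the high side, against 16.43, 16.36 and 16.21 on the low side. The highest low array for Gclc was CCL6 replicate 3. Nqo1 and Slc7a11, commonly used readouts of NRF2, overlapped and had higher means on the high side. The quinone reductase gene Nqo1 had 8.96, 9.31 and 9.15 in the high arrays, against 9.20, 8.10 and 8.16 in the low arrays. The cystine importer gene Slc7a11 had 11.18, 10.81 and 10.22 on the high side and 10.65, 9.64 and 10.03 on the low side. Nfe2l2, the gene of NRF2, had 12.51, 12.55 and 12.18 in the high arrays and 12.51, 12.25 and 12.48 in the low arrays.

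**Figure D4:**
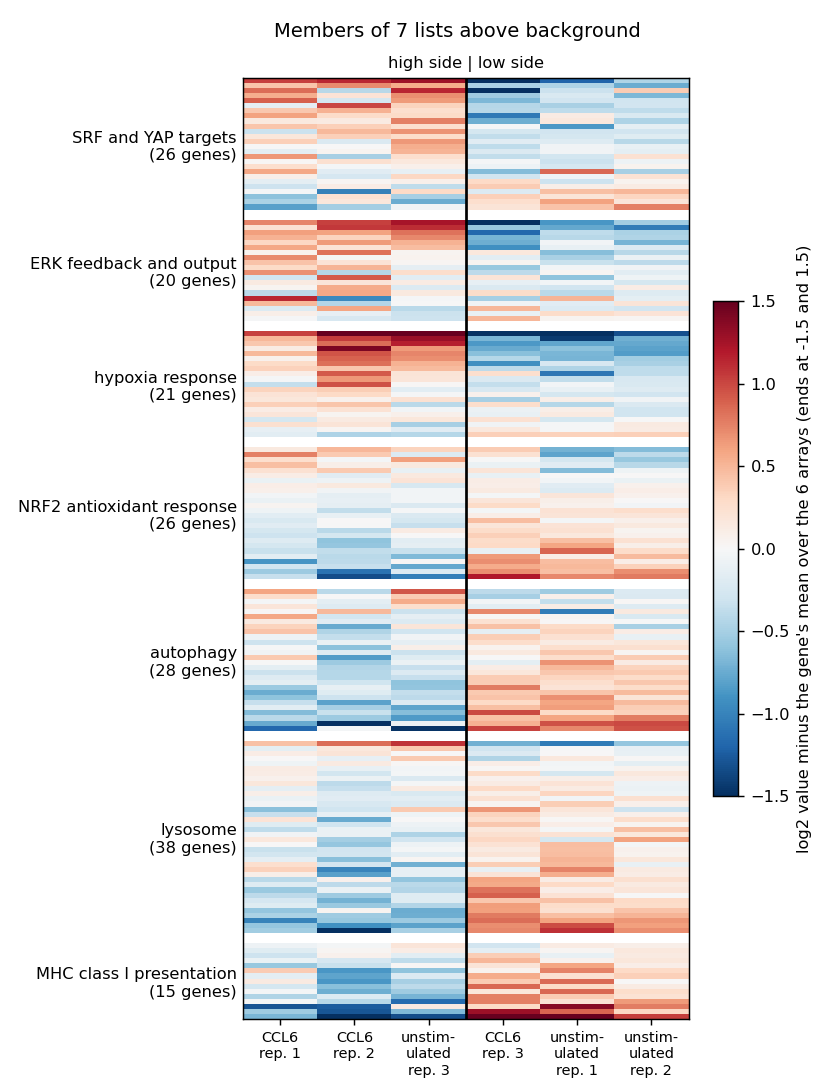
Each row is a gene of 7 lists that lay above background on at least 1 side, coloured by its log2 value less its mean over the 6 arrays, with the 3 high arrays left and the 3 low arrays right of the line. The lists of SRF and YAP targets, ERK feedback and hypoxia response are mostly red on the left, and those of NRF2, autophagy, lysosome and MHC class I mostly red on the right, with rows in each that do not follow.

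Of 22 genes of fatty acid oxidation 6 were lower and 1 higher, with a median of -0.40. Ppargc1a, the coactivator PGC-1α of mitochondrial genes, had 7.65, 7.37 and 7.96 on the high side, against 9.41, 9.23 and 9.10 on the low side. Cpt1a, which admits fatty acids to mitochondria, had 13.24, 12.61 and 12.91 in the high arrays, against 13.72, 13.61 and 13.75 in the low arrays. Slc25a20, the carnitine carrier, had 10.98, 10.14 and 10.76 on the high side and 11.40, 11.56 and 11.61 on the low side. On each of them all 3 low arrays were above all 3 high arrays. Acadvl, the dehydrogenase for very long chains, was the higher member, at 11.07, 11.61 and 11.54 in the high arrays and 10.06, 10.10 and 9.72 in the low arrays. Respiratory chain subunits showed no shared direction, with 5 of 77 higher and 10 lower and a median of -0.09.

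Genes of resting cells and FOXO targets had no common direction, with 11 of 40 higher and 9 lower without overlap. Apart from Rbl1, the higher members included Foxo1, which encodes a FOXO factor, at 7.82, 7.27 and 8.14 on the high side, against 6.72, 6.55 and 6.60 on the low side. Cdkn2c, the CDK inhibitor p18, had 12.32, 11.89 and 12.59 in the high arrays, against 11.26, 11.74 and 11.59 in the low arrays. Lower ones included the antiproliferative gene Btg1, at 12.12, 11.95 and 11.86 on the high side and 12.77, 12.37 and 12.44 on the low side. Its relative Tob1 had 12.29, 11.99 and 11.92 in the high arrays and 13.003, 12.66 and 12.40 in the low arrays. Transcripts that encode brakes on division were thus found in both directions. Whether these proteins held back division was not tested. Cdkn1b, the CDK inhibitor p27 that serum loss is known to raise, overlapped, at 12.999, 12.61 and 12.996 on the high side, against 12.48, 13.04 and 12.71 on the low side. Of 24 p53 targets 2 were higher and 5 lower, with a median of -0.26. Rrm2b, a ribonucleotide reductase subunit that p53 induces, had 10.97, 10.82 and 10.37 in the high arrays, against 11.88, 11.72 and 11.51 in the low arrays. Ccng1, cyclin G1, had 16.90, 16.79 and 16.57 on the high side and 17.48, 17.30 and 17.33 on the low side. Cdkn1a, the CDK inhibitor p21, was as high on CCL6 replicate 1 as on the low arrays, at 16.38, 15.30 and 15.18 in the high arrays and 16.01, 16.28 and 16.40 in the low arrays. The centred mean of the p53 list was 0.23, -0.27 and -0.26 on the high side, against 0.09, 0.10 and 0.11 on the low side, so that CCL6 replicate 1 stood apart from both other high arrays.

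Both sides held both treatments, so CCL6 could be set against unstimulated cells within each side, with 2 arrays against 1 on the high side and 1 against 2 on the low side. Above background, 1822 of 12547 probe sets (14.5%) had every CCL6 array above every unstimulated array within both sides, and 1765 (14.1%) had them below. Without regard to side, 487 (3.88%) were higher and 498 (3.97%) lower in CCL6 without overlap of the groups. The order within both sides is easier to meet by construction than separation of both whole groups. These shares therefore cannot be set against each other. Across all 22206 probe sets limma called 0 at an adjusted p under 0.05, with a smallest adjusted p of 0.999. At an unadjusted p under 0.05 it gave 685, 284 of them higher and 401 lower in CCL6. These counts, like the differences within each side, rest on the labels of the arrays numbered 3. With the methods' t-test the count was 812 before and 1 after Benjamini-Hochberg adjustment, at the same threshold of 0.05. The smallest adjusted p of limma lay between 0.0649 and 1 when each array was left out in turn.

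Ranked by the smaller of both within-side differences, the first of the named genes was Myo9a, an unconventional myosin and a gene the study followed. CCL6 arrays had 9.92, 8.30 and 9.63 for replicates 1 to 3, against 6.23, 9.44 and 6.55 for unstimulated replicates 1 to 3. Its difference was 2.56 within the high side and 1.79 within the low side, and limma estimated 1.87 ± 0.80 (SE, n = 3 each, adjusted p = 0.999). Unstimulated replicate 2 lay within the range of the CCL6 arrays. Zfp976, a zinc finger gene, differed by 1.998 and 1.77 within the high and the low side. Phf20, a subunit of a histone acetyltransferase complex, differed by 4.28 within the high and 1.45 within the low side. In Phf20 the single array of unstimulated replicate 3, at 6.40, lay far below the other 5, which were at 9.66 to 12.17. Dbp, an output gene of the circadian clock, differed by 1.78 within the high and 1.29 within the low side. Defb14, a defensin, was lower with CCL6 within both sides, by differences of -2.20 on the high and -1.08 on the low side. The 12 genes named for treatment all had an adjusted p of 0.999 with limma.

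The other genes the study followed overlapped between the sides. Limk1, a kinase that inactivates cofilin, had 9.65, 10.26 and 9.83 in the high arrays, against 8.71, 10.14 and 9.03 in the low arrays. Cfl1, cofilin, had 16.16, 16.57 and 16.25 on the high side and 16.66, 16.53 and 16.64 on the low side. For CCL6 minus unstimulated, limma estimated -0.13 ± 0.44 for Limk1 and -0.01 ± 0.25 for Cfl1 (SE, n = 3 each, adjusted p = 0.999). The study reports both transcripts as raised by CCL6, with qRT-PCR at an earlier time than the arrays. Ccr1, the receptor of CCL6, lay below background on all arrays, at 3.88, 3.37 and 2.97 in the high arrays and 3.17, 3.08 and 3.69 in the low arrays. The study reports Ccr1 transcript in ID8 cells by qRT-PCR, and a dim probe set does not show that it is absent. Ccl6 itself had 5.91, 6.52 and 6.53 on the high side, against 6.71, 5.86 and 6.80 on the low side. The 12 genes with the widest gap toward the high side had CCL6 minus unstimulated differences of 0.48 to 1.60, each with an SE of 0.83 to 1.40 and an adjusted p of 0.999 with limma. The high side held more CCL6 arrays, so genes picked for being higher there lean toward positive differences by construction. Within the high and the low side Rbl1 differed by -0.03 and -0.26, whereas Fut10 differed by 0.64 and 0.58.

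**Figure D5:**
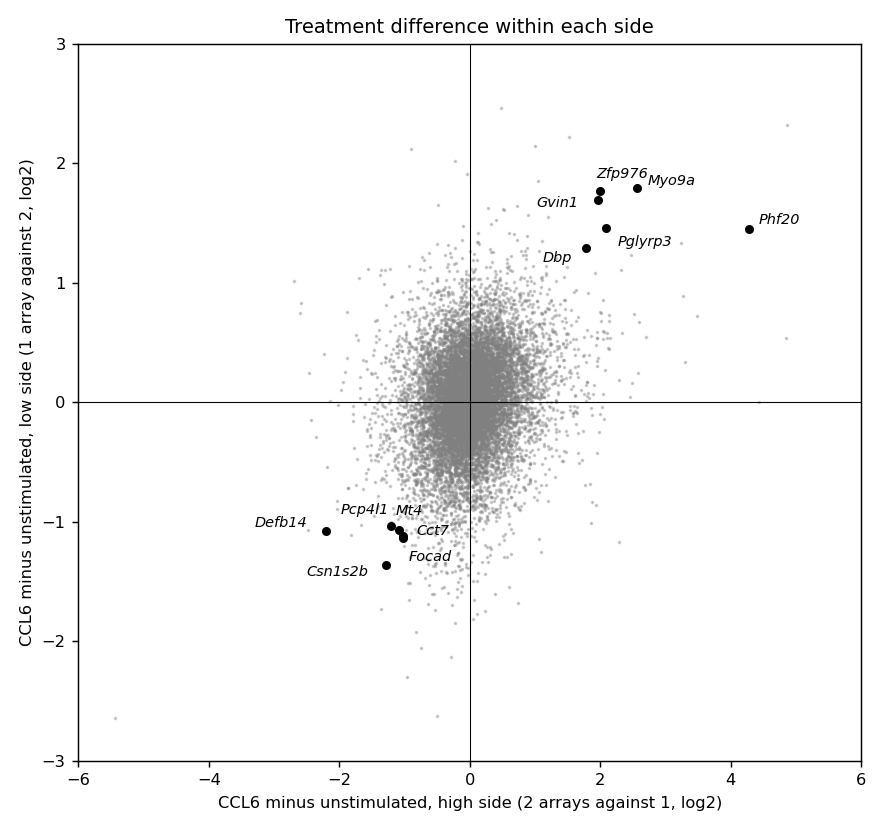
CCL6 minus unstimulated difference on the log2 scale within the high side (horizontal axis, 2 arrays against 1) and within the low side (vertical axis, 1 array against 2) for 12547 probe sets above background in at least 1 treatment group, on axes of different range. Grey points are probe sets, and the 12 black points are the named genes for treatment, whose treatments did not overlap within either side, such as Myo9a at 2.56 and 1.79.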

How the data were processed

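Total RNA of ID8 cells from 6 cultures was measured on Clariom S mouse arrays, 1 array per culture. The authors deposited 1 table of log2 expression values for 22206 probe sets, which the submitters' processing notes credit to RMA. Its version was not given in the sources used here. No log base is stated, and it was taken as 2 from the range of 1.93 to 19.2. RMA corrects background, applies quantile normalization and summarises probes. The arrays thus had similar though not identical distributions, with medians of 5.42 to 5.49, and a shift common to most genes would not be seen. Values were used as deposited. An array has no sequencing depth, and precision is limited by 3 arrays a group.

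Each of 19572 probe sets had 1 symbol in the platform annotation and 2634 had none. All 19572 gene IDs matched RefSeq (GRCm38.p6) and 0 symbols changed. Over 1452 probe sets for chemosensory receptors, 95 percent had a mean below 4.85, and this value served as background. Arrays went to the high or low side by the marker mean, and each probe set was described by its mean difference, its gap (lowest array of the higher side minus highest array of the lower side) and its overlap. CCL6 was set against unstimulated cells with limma 3.58.1 (R 4.3.3, lmFit and eBayes, Benjamini-Hochberg adjustment over all 22206 probe sets). The same fit was run on simulated arrays. Their noise was independent for each probe set and lacked the split into sides, so they cannot show how limma does on these arrays. Groups came from the labels, and p-values measure the spread between those cultures. Tables were handled in Python 3.11.15 with pandas 2.3.3.

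The sides and the 54 lists (1891 genes measured) were chosen with earlier results of these data known. Genes were named by a fixed rule: the markers, up to 5 members per list with the widest gap, the 12 genes with the widest gap in each direction outside the cell cycle lists, up to 6 genes in each direction for treatment within both sides, and the genes the study followed. The other members named, which include those that overlapped or went against their list and some of those with a printed promoter, were chosen after their values were seen. Promoters were searched from 250 bases before to 50 after the start. Alternatives were repeated quantile normalization, median centring, cyclic loess, filters on dim or unnamed probe sets, other marker scores, limma with array weights, with robust variances or with a replicate block, the methods' t-test, and each array left out in turn.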

Additional observations from a re-analysis of the deposited data

How the results depend on the processing

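All 6 arrays kept their side under 11 other marker scores and scalings, with a smallest gap of 0.40 for the median of the markers. These settings reuse markers of the rule, alone or within the replication and mitosis lists, and so are not independent of it. The mean without Ccnb1 was not run since that gene was not measured. Probe sets that did not overlap numbered 2821 higher and 2364 lower on the high side over the whole array, and with 1 array left out, which leaves 2 against 3 and makes separation easier by construction, 3523 to 4352 higher and 3252 to 3742 lower. Other scalings gave 2634 to 3076 higher and 2085 to 2514 lower. Of 307 genes named for the sides 6 moved by more than their replicate spread, all under cyclic loess. They were Tmsb4x at -0.52, Arf1 at 0.47, Lss at 0.51, Cct2 at -0.29, Rpl5 at -0.33 and Vim at -0.20. Among the named genes without overlap 0 changed direction, which leaving out an array could not bring about. A change of direction was not counted for genes that overlapped. Of 54 lists 25 moved in some setting. Changes of sign were counted only for lists whose mean did not overlap between the sides, and 2 of these changed. The glycolysis median of 0.09 ranged from -0.0118 to 0.18 with each array left out and was negative only without CCL6 replicate 2. The median of growth factor receptors and RAS pathway genes was 0.0226 after median centring and -0.10 to 0.0896 with each array left out, and the cause was not tested.

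For CCL6 against unstimulated cells limma gave 0 calls at an adjusted p under 0.05 in each setting run, with 0 to 0 calls as each array was left out, and the methods' t-test gave 1. At an adjusted p under 0.1 limma gave 1 call without unstimulated replicate 2 and 0 otherwise. The 12 named treatment differences kept their sign throughout. Same-numbered CCL6 and unstimulated arrays deviated from their group means with correlations of -0.08, -0.23 and -0.66, and no array correlated best with its own number. All positive correlations were between arrays of the same side. The check rests on the labels of the arrays numbered 3 and cannot show whether same-numbered cultures were handled together. With the replicate number as a block limma gave 0 calls, and 474 probe sets at an unadjusted p under 0.05.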

Other observations

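Beside the 18.3% of probe sets above background that were higher and the 14.9% that were lower without overlap, further lists gave the following counts. The counts run over all measured members, and over all genes the shares were 13.2% higher and 10.9% lower. Of 28 genes of the integrated stress and amino acid response 10 were higher and 3 lower on the high side without overlap, with a median difference of 0.29. Slc7a5, an importer of large amino acids, had 15.52, 14.99 and 15.45 in the high arrays, against 14.53, 14.51 and 14.45 in the low arrays. Atf3, a stress-induced transcription factor, had 8.998, 9.16 and 9.62 on the high side and 7.84, 8.14 and 7.96 on the low side, whereas Nupr1, a stress gene that ATF4 induces, was lower, at 13.13, 12.97 and 12.65 in the high arrays and 14.58, 13.59 and 13.54 in the low arrays. Of 23 genes of the unfolded protein response 2 were higher and 1 lower. Among 19 genes of cholesterol synthesis 6 were higher and 0 lower, with Insig1, the sterol sensor partner, at 15.27, 15.98 and 15.29 on the high side, against 14.78, 14.32 and 14.69 on the low side.

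In the TGF-beta and BMP list 7 of 33 genes were higher and 8 lower. Grem1, a secreted BMP antagonist, had 6.22, 6.34 and 4.43 in the high arrays, against 7.53, 8.71 and 8.38 in the low arrays, and Inhbb, an activin subunit, had 7.71, 8.37 and 7.99 on the high side and 7.14, 6.98 and 6.71 on the low side. Among matrix proteases and inhibitors, Mmp13, a collagenase, had 6.64, 5.55 and 6.04 in the high arrays and 8.36, 7.82 and 8.42 in the low arrays, and Timp1, an inhibitor of such enzymes, had 12.66, 12.45 and 12.29 on the high side, against 11.19, 11.56 and 11.41 on the low side. Of 39 primary cilium genes 8 were higher and 4 lower, with Bbs1, a cargo adaptor of the cilium, at 7.18, 6.87 and 7.61 in the high arrays, against 5.89, 5.502 and 5.90 in the low arrays. Of 355 zinc finger genes 48 were higher (13.5%) and 30 lower (8.45%), and 302 of the 355 lay above background.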
